A study of Arabidopsis thaliana with 4 samples.

Results

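The SAUR genes (small auxin up RNA) of Arabidopsis thaliana were followed in seedlings grown with and without ASP, a small synthetic piperazine with a bromophenoxyacetyl group on one nitrogen and a fluorophenylsulfonyl group on the other. The members were 49 listed SAUR loci. A probe set counted as a member when its annotation in the deposited workbook named 1 or more of these loci and no other gene. This gave 35 of 22746 probe sets, each of which named a single SAUR locus, so by annotation no member was shared between SAUR genes. The annotation does not show that a signal comes from that gene alone, since near copies can share target sequence. Of the other 14 loci, 2 were named together with a gene outside the list and 12 were not analysed here. All 49 loci were found in the RefSeq gene table, which supplied the names used below.

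RNA came from whole seedlings of Columbia 0, aged 5 days, grown on 1/2 MS agar, a diluted Murashige and Skoog plant medium with sucrose. The first group had ASP in the medium (2 arrays) and the control group had none (2 arrays). Neither group carried a mutation or a transgene, and no ASP dose was given in the sources used. The labels call the arrays of a group biological replicates, and each array is named below by its group and replicate number. The comparison asks which transcripts stand at another level when seedlings grow with ASP.

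SAUR transcripts are short, unstable, intronless messages, many of them raised within minutes of auxin treatment. Several of the proteins bind and inhibit phosphatases of PP2C clade D at the plasma membrane, which leaves the proton pumps there active, acidifies the wall and lets cells expand. In seedlings they are best known for growth of the hypocotyl and the opening of cotyledons, and their expression also answers to light, brassinosteroid, gibberellin and warmth. Most lie in tandem arrays of near copies, and several single loci have roles outside elongation.

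The arrays were Affymetrix 3′ expression arrays, and values are the authors' normalized log2 signal, beside which each probe set is called present, marginal or absent. Between 66.3% and 69.0% of probe sets were called present on an array, and 30 to 32 of the 35 SAUR probe sets. The labelled tissue was checked against markers. Of 6 root markers 5 were present on all 4 arrays, as were both measured shoot markers, RCA and CA1, while 3 of 4 flower and 3 of 4 seed storage markers were absent on all 4. The summed linear signal of the 6 root markers was 17130 and 16533 on the ASP arrays, against 18667 and 13430 on the control arrays. Most of each sum was PYK10, with log2 signals of 13.99 and 13.93 with ASP, against 14.01 and 13.56 in control, so the sums say little about the other root markers. PYK10 alone of the 6 had a higher mean with ASP. Of these 6, 5 had a lower mean with ASP, and IRT1, the root iron transporter, had a log2 fold change of -1.82 (limma adjusted p 0.352, and 0.0177 with an intensity trend, where the variance that limma borrows from other probe sets depends on how bright they are). Summed signal of the 2 shoot markers, both higher in mean with ASP, was 30763 and 27177 on the ASP arrays, against 24013 and 21647 on the control arrays. The 4 flower markers summed to 86.7 and 95.7 with ASP, against 64.3 and 70.4 in control, and the 4 seed storage markers to 71.1 and 55.7 with ASP, against 107.3 and 85.9 in control. The part of these shifts in the SAUR values was not tested, and in whole seedlings fewer cells of a type and less RNA per cell cannot be told apart.

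No SAUR probe set passed the test between seedlings with and without ASP, and their mean signals lay higher with ASP for some and lower for others. The test was limma's, adjusted over all 22746 probe sets with a threshold of 0.05, and was run without and with the intensity trend. Of all probe sets 0.0% passed without the trend and 0.317% with it. The smallest adjusted p of a SAUR probe set in limma was 0.265 without the trend and 0.199 with it. At an unadjusted p under 0.05 without the trend, 3 SAUR probe sets were higher with ASP (background 3.33%) and 0 were lower (background 4.09%). Of these 3, SAUR45 and SAUR52 were called present on neither control array, and the other was SAUR76. That made 3 of 35 in either direction (background 7.42%). With the trend 2 were higher (background 4.69%) and 3 were lower (background 4.78%), 5 of 35 in all (background 9.47%).

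Direction was split. Mean signal was higher with ASP for 16 of the 35 SAUR probe sets and lower for 19, which makes 45.7% higher, against 47.5% of all probe sets. The median log2 fold change, ASP minus control, was -0.05 over the SAUR probe sets and -0.02 over all probe sets. Both ASP arrays lay above both control arrays for 4 SAUR probe sets (background 18.5%) and below them for 7 (background 20.9%), so the groups lay apart for 11 of 35 (background 39.4%) and overlapped for 24. For 19 of the 35 the log2 fold change was within 0.3 of 0.

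**Figure D1:**
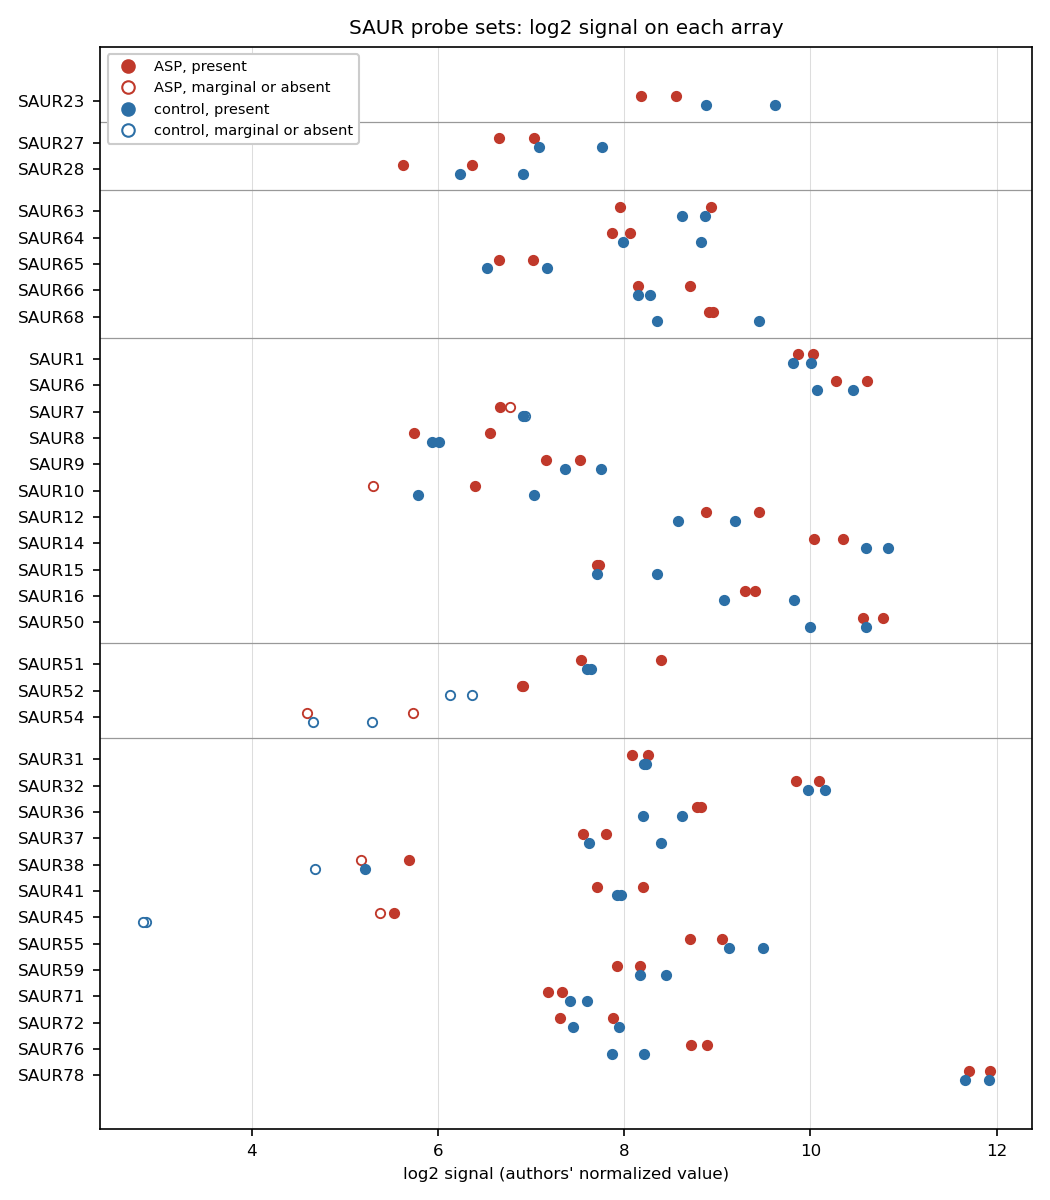
Log2 signal of the 35 SAUR probe sets (rows) on each of the 2 ASP and 2 control arrays; filled points are present calls, open points marginal or absent ones, and lines part the tandem clusters, the chromosome 1 pairs and the single loci. Each row is read only within itself, since different probe sets bind with different strength; ASP points lie left of control points for SAUR23 and SAUR14 and right of them for SAUR76, SAUR52 and SAUR45.

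Within the SAUR19 subfamily, whose members drive cell expansion in the hypocotyl, only SAUR23, SAUR27 and SAUR28 had a probe set of their own. All 3 had lower means with ASP and none passed the test. SAUR23 (AT5G18060) had log2 signals of 8.56 and 8.19 with ASP, against 9.62 and 8.88 in control. Both ASP arrays lay below both control arrays, but the control arrays were themselves 0.74 apart. The log2 fold change was -0.88 with a standard error of 0.35 and a 95% interval from -1.92 to 0.16 (limma adjusted p 0.720, and 0.296 with the trend). Without control replicate 1 it was -0.51 and without control replicate 2 it was -1.25. In the authors' deposited table, which used 3 columns per group, SAUR23 was the only SAUR member listed, 2.05-fold lower with ASP at an unadjusted p of 0.0296. Its probe set is of the type that, per the deposited descriptions, holds some probes that bind transcripts of other genes, so SAUR23 and near copies of it cannot be told apart in this signal.

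SAUR27 (AT3G03840) and SAUR28 (AT3G03830) are neighbours in an array on chromosome 3 whose members have been tied to growth in warmth. SAUR27 had log2 signals of 7.03 and 6.66 with ASP and 7.76 and 7.09 in control, a log2 fold change of -0.58 ± 0.33 (SE). SAUR28 stood at 6.36 and 5.63 with ASP and at 6.92 and 6.24 in control, a log2 fold change of -0.58 ± 0.41 (SE). Leaving out 1 array moved SAUR27 to between -0.24, without control replicate 1, and -0.91, without control replicate 2. For SAUR28 the values were -0.24 and -0.92 without control replicates 1 and 2, and -0.95 and -0.21 without ASP replicates 1 and 2. The groups just failed to overlap for SAUR27 and overlapped for SAUR28, and limma's adjusted p was 0.784 and 0.819. In both genes replicate 1 was above replicate 2 in each group, by 0.37 with ASP and 0.67 in control for SAUR27 and by 0.73 with ASP and 0.68 in control for SAUR28.

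The SAUR63 subfamily, a tandem array on chromosome 1 that promotes elongation of hypocotyls and stamen filaments, gave 5 probe sets, and the groups overlapped in all 5. SAUR64 (AT1G29450) had log2 signals of 8.07 and 7.87 with ASP, against 8.83 and 7.99 in control, and a log2 fold change of -0.44 ± 0.36 (SE, limma adjusted p 0.828). That difference depended on the control array used. It was -0.03 without control replicate 1 and -0.86 without control replicate 2. Without ASP replicates 1 and 2 it was -0.54 and -0.34. SAUR63 (AT1G29440) had 8.94 and 7.96 with ASP, against 8.86 and 8.62 in control. SAUR65 (AT1G29460) had 7.03 and 6.65 with ASP, against 7.17 and 6.52 in control. Here the ASP values lay between the control values, as they also did for SAUR68 (AT1G29510, also listed as SAUR67), with 8.92 and 8.95 with ASP, against 9.45 and 8.35 in control. SAUR66 (AT1G29500) had 8.71 and 8.14 with ASP, against 8.15 and 8.28 in control. Over the 5 genes the log2 fold changes ran from -0.44 to 0.21.

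The clusters of chromosomes 4 and 2 gave 11 probe sets, 5 with a higher and 6 with a lower mean with ASP. SAUR14 (AT4G38840), linked like SAUR16 and SAUR50 to cotyledon opening, had the smallest p of these. Its log2 signals were 10.35 and 10.04 with ASP, against 10.83 and 10.60 in control, so the groups did not overlap. The log2 fold change was -0.52 ± 0.20 (SE), with a 95% interval from -1.12 to 0.08 (limma adjusted p 0.713, and 0.279 with the trend). SAUR50 (AT4G34760), one of the genes that open cotyledons in light, went the other way, with 10.78 and 10.57 with ASP, against 10.60 and 10.00 in control. Its log2 fold change was 0.38 ± 0.28 (SE, limma adjusted p 0.824). It was 0.67 without control replicate 1 and 0.08 without control replicate 2.

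SAUR16 (AT4G38860), also linked to cotyledon opening, had 9.30 and 9.40 with ASP, against 9.82 and 9.07 in control. SAUR15 (AT4G38850), the first SAUR described in this species and long used as an auxin marker under the name SAUR-AC1, had 7.71 and 7.73 with ASP, against 8.36 and 7.71 in control. Both genes were even on the ASP arrays and uneven on the control arrays. SAUR1 (AT4G34770) stood at 9.87 and 10.03 with ASP and at 10.01 and 9.82 in control. SAUR9 (AT4G36110), shown to inhibit clade D phosphatases, had 7.16 and 7.53 with ASP, against 7.75 and 7.37 in control. SAUR10 (AT2G18010) was the least even, with 6.40 and a marginal 5.30 with ASP, against 7.03 and 5.78 in control.

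On chromosome 2, SAUR6 (AT2G21210) and SAUR12 (AT2G21220) were both higher on ASP replicate 2 than on any other array. SAUR6 had 10.28 and 10.61 with ASP, against 10.46 and 10.07 in control, and SAUR12 had 8.88 and 9.45 with ASP, against 9.19 and 8.58 in control. SAUR8 (AT2G16580) had 6.56 and 5.74 with ASP, against 5.94 and 6.01 in control. SAUR7 (AT2G21200), called absent on 1 array of each group, lay at 6.67 to 6.77 with ASP and 6.91 to 6.93 in control and had a log2 fold change of -0.20 ± 0.14 (SE, limma adjusted p 0.817).

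Of the chromosome 1 pairs, SAUR52 (AT1G75590) was steady within groups. It had log2 signals of 6.92 and 6.91 with ASP, both present, against 6.37, called marginal, and 6.13, called absent, in control. Measured means were 6.91 ± 0.01 with ASP and 6.25 ± 0.17 in control (SD, n = 2 each), and limma's adjusted p was 0.578 (0.566 with the trend). The control level is at most a bound, since neither control array was called present. Its neighbour SAUR51 (AT1G75580) had 7.54 and 8.40 with ASP, against 7.60 and 7.65 in control, and the higher mean came from ASP replicate 2 alone. SAUR54 was called absent on all 4 arrays, at log2 signals of 4.60 to 5.73 with ASP and 4.66 to 5.29 in control, and is given no fold.

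Among the single loci, SAUR76 (AT5G20820), one of the SAURs that bind ethylene receptors, had the smallest p of all SAUR probe sets present on every array. Its log2 signals were 8.89 and 8.72 with ASP, against 7.87 and 8.22 in control. Both ASP arrays lay above both control arrays, by a gap larger than the spread within either group. The log2 fold change was 0.76 ± 0.20 (SE), with a 95% interval from 0.16 to 1.36 (limma adjusted p 0.604, and 0.199 with the trend). SAUR78 (AT1G72430), which acts with SAUR76 on those receptors, had 11.70 and 11.92 with ASP, against 11.66 and 11.92 in control. The same replicate order and nearly the same levels were seen in both groups. Whether SAUR76 and SAUR78 differ in their response was not tested.

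SAUR36 (AT2G45210, also SAG201), which promotes leaf senescence, had 8.82 and 8.78 with ASP, against 8.62 and 8.21 in control. The ASP arrays were above both control arrays, with a log2 fold change of 0.39 ± 0.21 (SE, limma adjusted p 0.777). It was 0.59 without control replicate 1 and 0.18 without control replicate 2. SAUR45 (AT2G36210) was called present on ASP replicate 1 at 5.53 and absent on the other 3 arrays, at 5.38 on ASP replicate 2 and at 2.87 and 2.83 on the control arrays. Measured means were 5.45 ± 0.10 with ASP and 2.85 ± 0.03 in control (SD, n = 2 each; limma adjusted p 0.265, and 0.263 with the trend). Since 5.38 was itself called absent, no fold is given, and with linear values under 50 set to 50 the difference was 0. SAUR38, present on 1 array of each group, lay at 5.17 to 5.69 with ASP and 4.68 to 5.21 in control. Its log2 fold change was 0.49 ± 0.32 (SE, limma adjusted p 0.812), and ran from 0.22 to 0.75 with each control array left out in turn. With linear values under 50 set to 50 it was 0.02.

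SAUR55 (AT5G50760) had 9.06 and 8.71 with ASP, against 9.49 and 9.12 in control. SAUR59 (AT3G60690) had 7.92 and 8.17 with ASP, against 8.44 and 8.18 in control. In both genes the ASP arrays lay below the control arrays, by 0.01 at the narrowest point for SAUR59, and the log2 fold changes were -0.43 ± 0.24 and -0.27 ± 0.19 (SE, limma adjusted p 0.781 and 0.824). With 1 array left out SAUR55 came as near to 0 as -0.24, without control replicate 1, and -0.25, without ASP replicate 2. SAUR59 came to -0.13 without control replicate 1, to -0.14 without ASP replicate 1 and to -0.40 without control replicate 2. SAUR37 (AT4G31320) had 7.55 and 7.81 with ASP, against 8.40 and 7.62 in control, again with control replicate 1 as the highest array.

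The SAUR41 subfamily promotes hypocotyl growth when overexpressed and gave 3 probe sets. SAUR71 (AT1G56150) had 7.19 and 7.33 with ASP, against 7.42 and 7.60 in control, with no overlap. Its log2 fold change was -0.25 ± 0.16 (SE, limma adjusted p 0.813), or -0.34 without control replicate 1 and -0.15 without control replicate 2. SAUR72 (AT3G12830) had 7.31 and 7.88 with ASP, against 7.95 and 7.45 in control. SAUR41 itself (AT1G16510) had 7.70 and 8.20 with ASP, against 7.93 and 7.97 in control. The last 2 genes spread as widely within ASP as between groups. SAUR32 (AT2G46690), which acts in the apical hook, had 10.09 and 9.85 with ASP, against 10.16 and 9.98 in control. SAUR31 (AT4G00880) had 8.08 and 8.25 with ASP, against 8.21 and 8.23 in control.

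**Figure D2:**
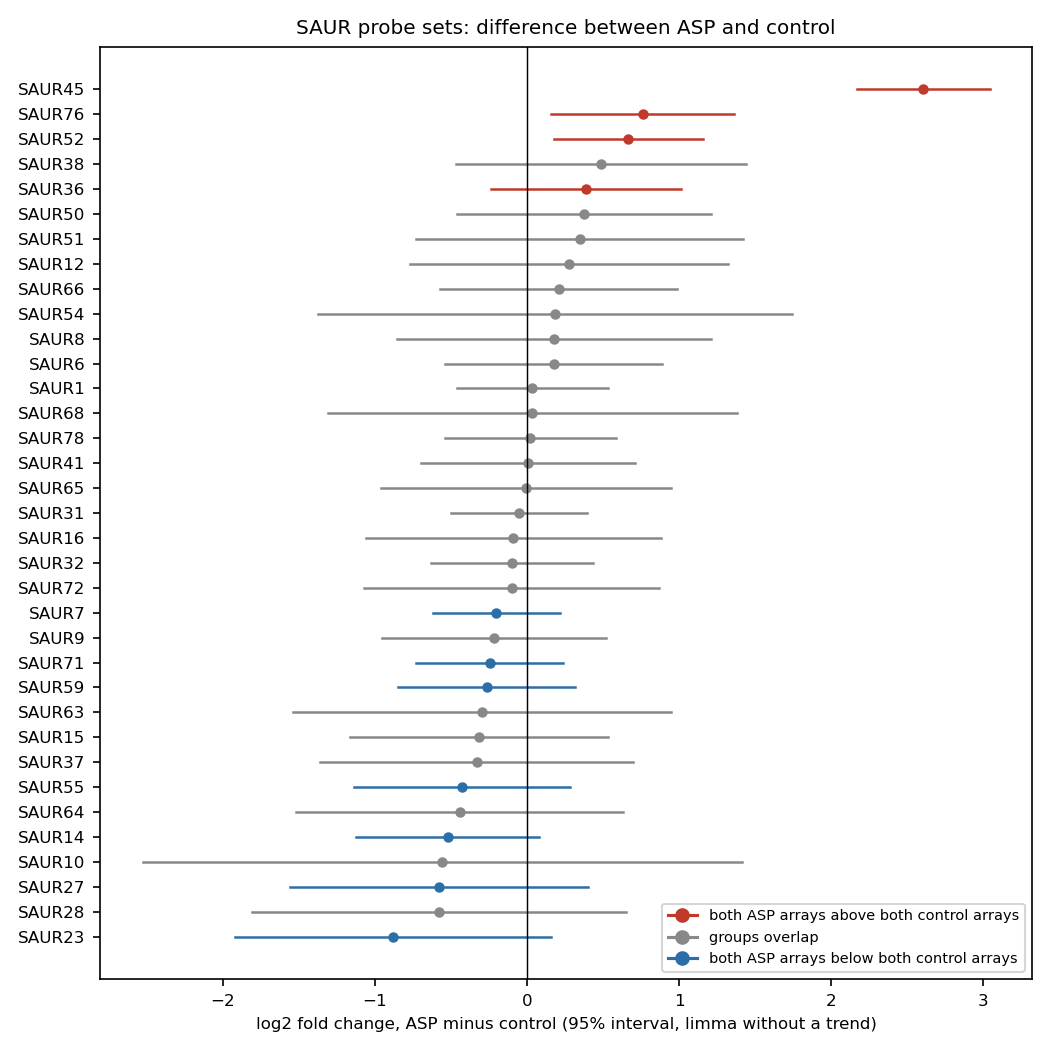
Log2 fold change (ASP minus control) of the 35 SAUR probe sets with its 95% interval from limma without a trend, coloured by whether the ASP arrays lie above, among or below the control arrays. The groups overlap for every member nearest 0, and farther out on both sides members whose groups lie apart are mixed with members whose groups overlap. Most intervals cross 0. SAUR45, absent on both control arrays, and SAUR52, present on neither, are drawn at their fitted values.

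For SAUR genes, arrays of 1 group differed from each other by a median absolute 0.31 in log2 signal with ASP and 0.38 in control. The median absolute log2 fold change between groups was 0.28. Over all probe sets these medians were 0.26 with ASP, 0.26 in control and 0.23 between groups. A fold change is taken between means of 2 arrays, which vary less than single arrays, so its size is not directly comparable with differences within a group. Control replicate 1 was above control replicate 2 for 25 of 35 SAUR probe sets, or 71.4%, with a median difference of 0.27 in log2 signal. Over all probe sets this held for 48.6%, with a median of -0.01. In the chromosome 4 and 2 clusters it held for 10 of 11 and in the SAUR19 and SAUR63 subfamilies for 7 of 8, but for 7 of 13 single loci. ASP replicate 1 was above ASP replicate 2 for 19 of 35, with a median of 0.04, and for 53.6% of all probe sets. In the SAUR19 and SAUR63 subfamilies this too held for 7 of 8, with a median of 0.37. It held for 5 of 11 in the chromosome 4 and 2 clusters and for 5 of 13 single loci.

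The sign of the family's median turned with the control array used. ASP replicates 1 and 2 had median differences of -0.18 and -0.20 from control replicate 1, and of 0.07 and 0.02 from control replicate 2. Without control replicate 1, 19 of 35 SAUR probe sets were higher with ASP and the median log2 fold change was 0.06. Without control replicate 2, 12 were higher and it was -0.19. The 8 probe sets of the SAUR19 and SAUR63 subfamilies, with a median of -0.37, also differed by array. ASP replicate 1 was above control replicate 1 for 2 of them and above control replicate 2 for 6. ASP replicate 2 was above control replicate 1 for 0 of the 8 and above control replicate 2 for 2, with median differences of -0.93 and -0.28.

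**Figure D3:**
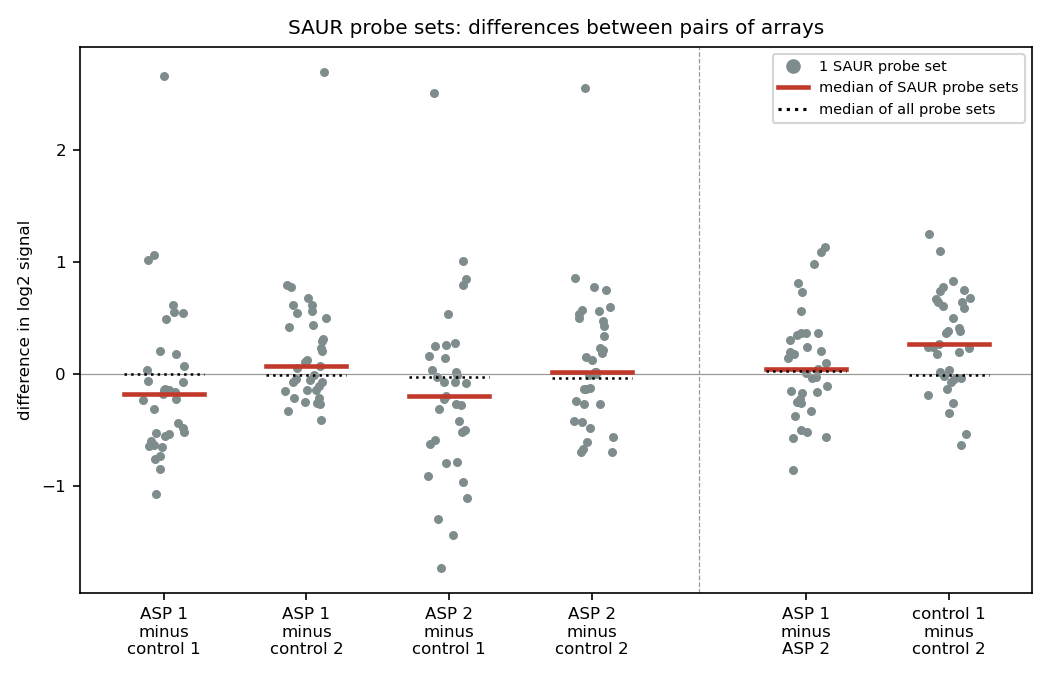
Differences in log2 signal between pairs of arrays for the 35 SAUR probe sets (points), with their median (solid line) and the median of all probe sets (dotted line); the 4 pairs between groups are left of the dashed line and the 2 pairs within groups right of it. The median within control (0.27) is farther from 0 than any of the 4 medians between groups, which run from -0.20 to 0.07.

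GH3.3 (AT2G23170), an auxin-conjugating enzyme gene, was chosen here after its values were seen. It had log2 signals of 12.01 and 12.02 with ASP, against 8.77 and 8.69 in control. Its log2 fold change of 3.28 had a limma adjusted p of 0.265, and 2.5e-05 with the trend. That was the largest increase among the 14261 probe sets present on all 4 arrays, so it is not a typical scale for early auxin genes. WES1 (AT4G27260), the other auxin gene looked at for context, had a log2 fold change of 2.25 (limma adjusted p 0.332, and 0.00163 with the trend). Over the 31 member SAUR probe sets present on both arrays of at least 1 group, log2 fold changes ran from -0.88 to 0.76. That range leaves out SAUR loci not on the member list. Of 19 probe sets for such loci, 9 had higher and 10 lower means with ASP. Among those present on both ASP arrays, SAUR35 (1.61), SAUR46 (1.33) and SAUR57 (1.06) lay above the range of the members.

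Genes for PP2C clade D phosphatases, proton pumps and regulators (receptors, transcription factors and kinases) were followed too. They showed no called difference either (0 of 36 genes by limma, without or with the trend). At an unadjusted p under 0.05 without the trend, 2 of the 36 were higher with ASP (background 3.33%) and 0 were lower (background 4.09%). With the trend 5 were higher (background 4.69%) and 0 were lower (background 4.78%). The 9 genes of PP2C clade D were present on all arrays. Means were higher with ASP for 7 and lower for 2, and the median was 0.23. Of these AT5G02760 (APD7) had 12.63 and 12.71 with ASP, against 11.95 and 12.16 in control. Both ASP arrays were above both control arrays, with a log2 fold change of 0.61 ± 0.16 (SE) and a 95% interval from 0.14 to 1.09 (limma adjusted p 0.604, and 0.102 with the trend). AT3G17090 and AT3G51370 had log2 fold changes of 0.40 ± 0.16 and 0.27 ± 0.19 (SE, limma adjusted p 0.726 and 0.819), again without overlap.

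Of the 11 plasma membrane proton pump genes 5 had higher and 6 lower means with ASP, with a median of -0.02, and 3 were absent on all arrays. AHA2, with AHA1 one of the main pumps of the plant, had 13.30 and 13.09 with ASP, against 13.33 and 13.28 in control, a log2 fold change of -0.11 ± 0.16 (SE). AHA11 had a log2 fold change of 0.10 ± 0.14 (SE), with 95% interval from -0.32 to 0.51. AHA7 was absent on both ASP arrays and present on both control arrays. Its measured means were 6.35 ± 0.15 with ASP and 6.96 ± 0.54 in control (SD, n = 2 each), 1.52-fold lower with ASP. That fold is a bound only in so far as the ASP signal was not called present. The 95% interval of the log2 fold change ran from -1.60 to 0.40 (limma adjusted p 0.781), so a minimum decrease is not shown.

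Among 16 measured regulators, 13 had higher means with ASP (background 47.5%), 11 lay wholly above control (background 18.5%) and 3 wholly below it (background 20.9%). Their median was 0.17, ASP minus control in log2 signal. All 5 activating auxin response factors were among the 11, at 0.17 to 0.57, and so were all 4 PIF factors, light-regulated activators of growth genes, at 0.15 to 0.78. PIF3 had 9.46 and 9.41 with ASP, against 8.42 and 8.88 in control, a log2 fold change of 0.78 ± 0.22 (SE, limma adjusted p 0.631, and 0.168 with the trend). NPH4 (ARF7) and MP (ARF5), which activate auxin-responsive promoters, had 0.38 ± 0.17 and 0.57 ± 0.28 (SE, limma adjusted p 0.747 and 0.764). The 5 auxin receptor genes ran from -0.22 to 0.18, with 3 higher and 2 lower.

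**Figure D4:**
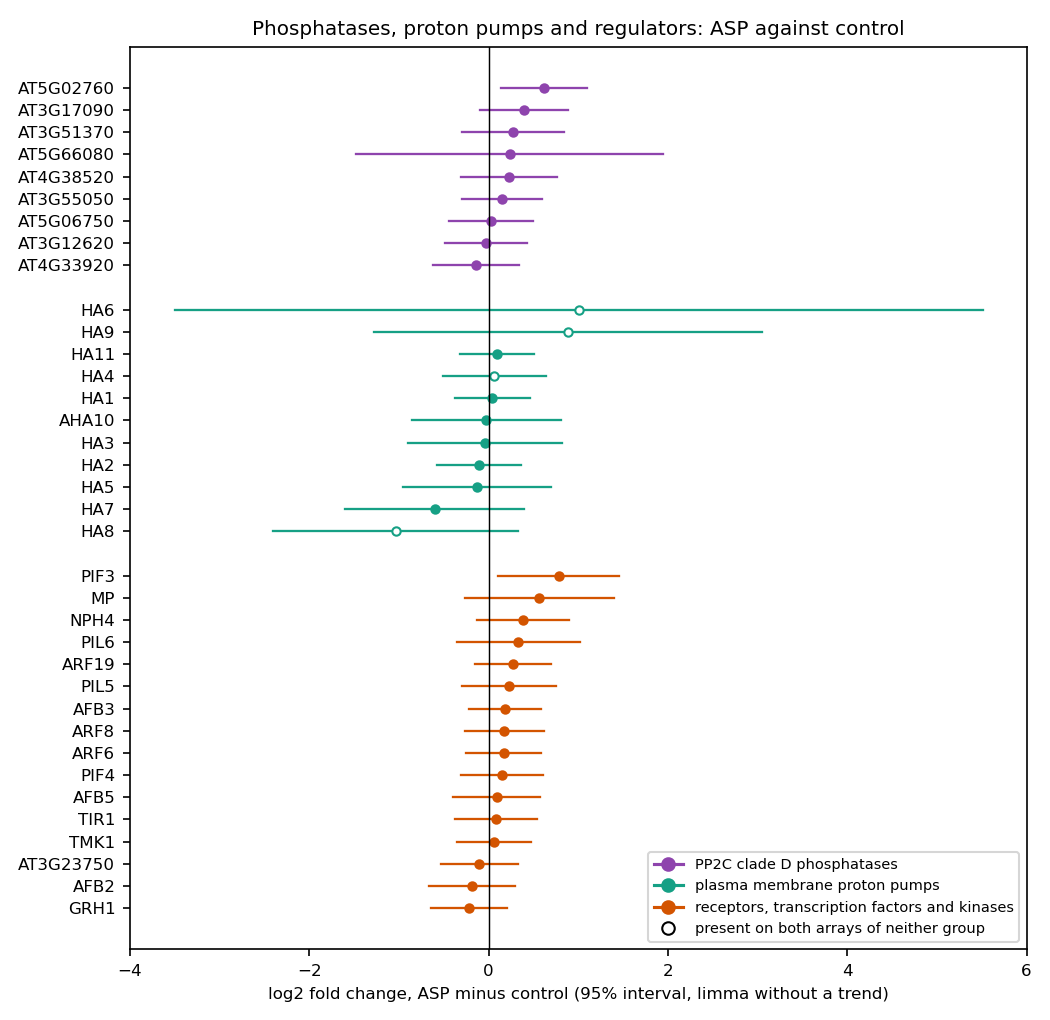
Log2 fold change (ASP minus control) with 95% interval from limma without a trend for 9 phosphatases of PP2C clade D, 11 proton pumps (HA and AHA names as in the RefSeq table) and 16 receptors, transcription factors and kinases; open points were present on both arrays of neither group. The best detected pumps sit near 0, and AT5G02760 and PIF3 are the 2 genes whose interval does not cross 0.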

How the data were processed

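Labelled RNA from 4 seedling samples, 2 with ASP and 2 control, was hybridised to Affymetrix arrays. The authors deposited normalized log2 signal per probe set with detection calls, per the file headers. How they were normalized and summarised, and on which genome build, was not stated in the sources available. Values of the deposited series matrix equalled those of the workbook to within 5e-09. A further deposited table by the authors lists 148 probe sets with a p-value (t-test, unadjusted) and a fold, the ratio of group means, per the file headers. Its p-value and ratio rest on 3 columns per group. Per-sample columns that matched no sample here, 4 of the workbook and 12 of that table, were not used.

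After 64 control probe sets were set aside, a 2-group model without block or trend was fitted by limma 3.58.1 (R 4.3.3, two-sided tests) to 22746 probe sets, with Benjamini-Hochberg adjustment over all of them and a threshold of 0.05. Each probe set had 2 residual degrees of freedom, to which the prior added 1.34 (6.06 with the trend), and an exact permutation test of 2 against 2 arrays cannot give a two-sided p below 0.333. Precision is limited by the number of arrays, and p-values measure the spread among these 4 samples. Where only the dimmer group was absent on both arrays, a bound was given in place of a fold if the other group was present on both: the dimmer group's level was set, per array, to its own signal or to the dimmest present signal, whichever was higher. Members, lists, tests and alternatives were chosen with earlier results of these data known.

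Array values were printed for members present on both arrays of at least 1 group (31), and fit statistics for the 12 of these and the 3 others with the smallest p; from each of 3 other lists, up to 3 present genes with the smallest p were named. Probe sets of neighbouring SAUR genes can share target sequence. Coordinates were not used, since the files name no build. Names came from the RefSeq gene table of TAIR10.1. Replicate numbers were not taken to pair the samples. Deviations of same-numbered arrays from their group means had a correlation of 0.00017 across all probe sets, which does not exclude a pairing. The sample descriptions carry the letters A and C in both groups, and the labels do not state whether same-lettered samples belong together.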

Additional observations from a re-analysis of the deposited data

How the results depend on the processing

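No SAUR probe set was called in 20 of the 21 alternatives, and the number of all probe sets called (0 as reported) was 72 with the intensity trend, 18 without the dimmest 30%, 19 after a filter for 2 or more present calls and 1 with linear values under 50 set to 50. Leaving out 1 array gave 0 without the trend and 9 to 37 with it (11 and 9 with ASP replicate 1 or 2 left out, 22 and 37 with control replicate 1 or 2 left out), the lone array of a group being assumed to vary like the other group. Added after seeing the data were the trend after quantile normalization (63 called), the trend after that present-call filter (193 called, 1 of them among phosphatases, proton pumps and regulators, AT5G02760), and the trend with the replicate number as a replicate block. That last fit called 321 probe sets, 2 of them SAUR genes, SAUR23 (log2 fold change -0.88, adjusted p 0.0107) and SAUR14 (-0.52, adjusted p 0.0433), and 2 among phosphatases, pumps and regulators, AT5G02760 and PIF3. The replicate block without the trend called 0, and whether the numbers pair the arrays is not known. The count of higher SAUR probe sets ran from 12 to 19 and their median from -0.19 to 0.06 over the arrays left out, and over the other settings from 13 to 16 and from -0.10 to -0.05. Of 311 single values recomputed for 15 members, 308 kept their direction and their side of the threshold, 2 were the calls above and 1 was SAUR45, which lay at the floor of 50 on every array. SAUR members called absent are limited by the detection level of the arrays.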

Other observations

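The RefSeq table names 30 further SAUR loci that were not on the member list, and 19 had a probe set of their own. None was called by limma, 4 were higher (background 3.33%) and 1 lower (background 4.09%) at an unadjusted p under 0.05 without the trend. Of the 4 higher, SAUR58 and SAUR44 were called absent on all 4 arrays, and the others were SAUR35 and SAUR46. In all, 8 of the 19 were absent on all 4 arrays. The genes named here were chosen after their values were seen. SAUR35 (AT4G12410) had log2 signals of 7.17 and 7.07 with ASP, against 5.51 and 5.51 in control, present on all arrays, and was 3.06-fold higher (limma adjusted p 0.265, and 0.147 with the trend). The authors' deposited table lists it as 2.67-fold higher at an unadjusted p of 0.0248. SAUR46 (AT2G37030) was 2.51-fold higher, at 7.98 and 7.86 with ASP, against 6.51, called absent, and 6.66 in control (limma adjusted p 0.364, and 0.0847 with the trend). SAUR57 (AT3G53250) had 8.18 and 8.55 with ASP, against 6.84 and 7.78 in control, and was 2.08-fold higher (limma adjusted p 0.720). SAUR79 (AT2G35290) had 6.78 and 6.44 with ASP, against 7.48 and 7.36 in control. SAUR35, SAUR46 and SAUR57 had larger differences than any listed member present on both arrays of a group.

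The 2 probe sets that named a listed SAUR together with another gene were both lower in mean with ASP. The one for SAUR30 and CPuORF50, a conserved peptide upstream open reading frame, had 8.17 and 8.01 with ASP, against 8.72 and 8.60 in control, without overlap (limma log2 fold change -0.57 ± 0.15 SE, adjusted p 0.607). The one for SAUR62 and SAUR75 had 9.29 and 8.68 with ASP, against 9.52 and 9.19 in control (-0.37 ± 0.30 SE, adjusted p 0.827).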
